A study of Oryza sativa with 18 samples.

Results

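In rice leaves, 8 of 37863 genes had no overlap between wild type and both FKBP knockout lines across all 18 RNA-seq libraries. The knockouts were lines labelled as knockouts of FKBP57 or FKBP73. Of these 8 genes, 6 were higher in wild type than in every knockout library and 2 were lower. The members were chosen from the counts themselves. Each library's counts were divided by the library total and given per 1000000 counts (CPM). A gene was kept when all 6 wild-type values lay above, or all lay below, all 12 knockout values. The mean CPM of the higher side had to be at least 0.5, and the ratio of wild type to each knockout, with 0.1 added to both means, at least 1.5 in the same direction. All the values of wild type against a knockout given below were therefore used to choose the genes and are a description with no test. As background, the separation was met by 0.0211% of all genes, 0.0158% on the higher side and 0.00528% on the lower side. All 8 separated genes also met the ratio and the level, so no gene was excluded by those conditions.

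Leaf mRNA was counted for 6 groups of 3 biological replicates each, per the series design. The genotypes were the wild-type cultivar Ningjing 4, a line labelled as an FKBP57 knockout and a line labelled as an FKBP73 knockout. Plants of each genotype were kept in normal nutrient solution (control) or given 150 mM NaCl for 4 hours (salt). The labels give no mutant allele, no line number, no plant age and no harvest time for the controls, so a knockout cannot be told apart from any other difference between its line and wild type, and salt cannot be told apart from harvest time. Tissue markers and the targeted genes were not analysed here, because the identifiers are not paired with names in the sources used.

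FK506-binding proteins are peptidyl-prolyl isomerases, enzymes that turn the peptide bond before a proline and so help proteins fold. Large members of the family also act as partners of the chaperone HSP90. The series title links both proteins to the SOS pathway, in which a calcium sensor and a kinase activate a plasma membrane antiporter that pumps sodium out of the cell. The 8 genes carry RAP-DB identifiers and none was found in the reference table, so no role can be given for them. Gene lengths were not used either, so levels are compared between libraries and never between genes.

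Library totals ran from 27601098 to 39894394 counts. Within groups, log2-CPM values of replicates correlated at 0.844 to 0.98, and the chi-square of replicate counts was at least 23.7 per degree of freedom, so no pair was a repeated library. Wild-type control 3 scored 2.4 on the first principal component, against -115.1 and -123.6 for the other wild-type controls. FKBP57 knockout control 3 scored 15.5, against -71.8 and -129.3, and FKBP57 knockout salt 3 scored -18.2, against 64.5 and 83.3. Without these 3 libraries all 8 genes still met the rule. Leaving libraries out cannot undo a separation, so only the ratio and the level could have failed there.

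The widest separation was that of Os01g0672600. In wild type it had 12.8, 5.75 and 16 CPM under control and 19.3, 20.5 and 18.2 CPM under salt. The FKBP57 knockout had 0, 0.191 and 0.259 CPM under control and 0.462, 0.064 and 0 CPM under salt. The FKBP73 knockout had 0.0628, 0.0662 and 0 CPM under control and 0.299, 0.212 and 0.0641 CPM under salt. The gene was thus low in all 12 knockout libraries, with 0 to 16 counts each, against 203 to 744 counts in the wild-type libraries. The lowest wild-type library stood 12.4-fold above the highest knockout library. The mean ratio of wild type to the FKBP57 knockout was 59.1 and that to the FKBP73 knockout 71.4, with 0.1 CPM added to each mean. These sizes depend on the constant because the knockouts were near 0, and with 0.5 CPM added the ratios were 24 and 25.8. A library total here puts 3 counts, the limit that a count of 0 allows, between 0.0752 and 0.109 CPM, and this limit covers counting error only.

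Os12g0576100 was also low in every knockout library but was not absent from any of them. Its wild-type values were 1.48, 3.37 and 3.74 CPM under control and 8.07, 3.06 and 2.97 CPM under salt. In the FKBP57 knockout it had 0.145, 0.191 and 0.162 CPM, and under salt 0.346, 0.128 and 0.234 CPM. In the FKBP73 knockout the control values were 0.251, 0.662 and 0.137 CPM and the salt values 0.0598, 0.353 and 0.0961 CPM. Knockout counts were 2 to 20 per library and wild-type counts 59 to 286. The nearest libraries, wild-type control 1 and FKBP73 knockout control 2, differed 2.23-fold. The ratio was 12.9 to the FKBP57 knockout and 10.8 to the FKBP73 knockout, and with 0.5 CPM added in place of 0.1 it was 6.11 and 5.63.

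Os11g0623800 was the gene with the fewest reads of the 8. It had 1.03, 0.566 and 1.04 CPM in the wild-type controls and 1.04, 0.469 and 1.93 CPM in the wild-type salt libraries, from 17 to 72 counts. FKBP57 knockout libraries had 0, 0.0636 and 0 CPM under control and 0.0578, 0.128 and 0 CPM under salt, from 8 counts in all. FKBP73 knockout libraries had 0.188, 0.132 and 0.137 CPM under control and 0.239, 0.318 and 0 CPM under salt, from 31 counts in all. Counts were thus present in 5 of the 6 FKBP73 knockout libraries and in 3 of the 6 FKBP57 knockout libraries. The nearest libraries differed 1.48-fold, and the ratios were 7.86 and 4.13, or 2.79 and 2.26 with 0.5 CPM added.

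Os05g0229000 and Os05g0229475 follow each other in identifier order and were both higher in wild type. Os05g0229000 had 145, 121 and 189 CPM in the wild-type controls and 142, 183 and 142 CPM under salt. Its knockout values were 59.3 to 68 CPM in the 6 FKBP57 knockout libraries (median 63.4) and 52.4 to 80.3 CPM in the 6 FKBP73 knockout libraries (median 61.2). The FKBP57 and FKBP73 values lay in the same range, and wild type stood 2.42-fold and 2.45-fold above them on average. Os05g0229475 had 30.2, 61.2 and 37.7 CPM in the wild-type controls and 31.6, 43.3 and 26.1 CPM under salt. Its FKBP57 knockout values were 12.6 to 20.7 CPM (median 13.9), its FKBP73 knockout values 10.8 to 16.7 CPM (median 12.4), and the ratios 2.53 and 2.88.

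The reads of the pair kept a similar ratio in most libraries. Reads of Os05g0229475 were 17.2% to 33.8% of those of Os05g0229000 in the 12 knockout libraries (median 21.5%) and 18.3% to 50.5% in the 6 wild-type libraries (median 21.5%). Wild-type control 2 held the value of 50.5%, and the other 5 wild-type libraries had 18.3% to 23.6%. No source used here gives the strand setting of the counting, so whether both identifiers received the same reads was not tested.

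Os02g0316900 was the gene closest to the bound. It had 81.9, 104 and 104 CPM in the wild-type controls and 104, 118 and 105 CPM under salt. The FKBP57 knockout had 65, 33.8 and 54.8 CPM under control and 75.1, 68.5 and 55 CPM under salt. The FKBP73 knockout had 74.9, 64.1 and 77.5 CPM under control and 70.5, 70 and 50.4 CPM under salt. The lowest wild-type library was 1.06-fold above the highest knockout library, and the ratios were 1.75 and 1.51. On library totals scaled by TMM, a normalisation that discounts genes taking an unusual share of the reads, this gene no longer met the rule.

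Among the genes lower in wild type, Os03g0426350 had 11.5, 6.09 and 12.9 CPM in the wild-type controls and 7.79, 6.9 and 12.3 CPM under salt. It had 35.2, 31.3 and 44.6 CPM in the FKBP57 knockout controls and 41.5, 39.4 and 37.5 CPM under salt. In the FKBP73 knockout it had 31, 33.6 and 24.9 CPM under control and 32.2, 33.3 and 30.5 CPM under salt. All 12 knockout libraries lay at least 1.93-fold above the highest wild-type library. The FKBP57 knockout was 3.96-fold and the FKBP73 knockout 3.2-fold above wild type.

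Os05g0186300 varied more among the knockout libraries. Wild type had 4.69, 3.4 and 4.88 CPM under control and 5.56, 2.62 and 2.6 CPM under salt. The FKBP57 knockout had 20.8, 10.5 and 29.5 CPM under control and 21.6, 32.2 and 21.1 CPM under salt. FKBP73 knockout plants had 16.3, 15 and 14.3 CPM under control and 6.67, 6.28 and 10.9 CPM under salt. The library nearest to wild type was FKBP73 knockout salt 2, 1.13-fold above the highest wild-type library. Relative to wild type the FKBP57 knockout was 5.6-fold and the FKBP73 knockout 2.88-fold higher.

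**Figure D1:**
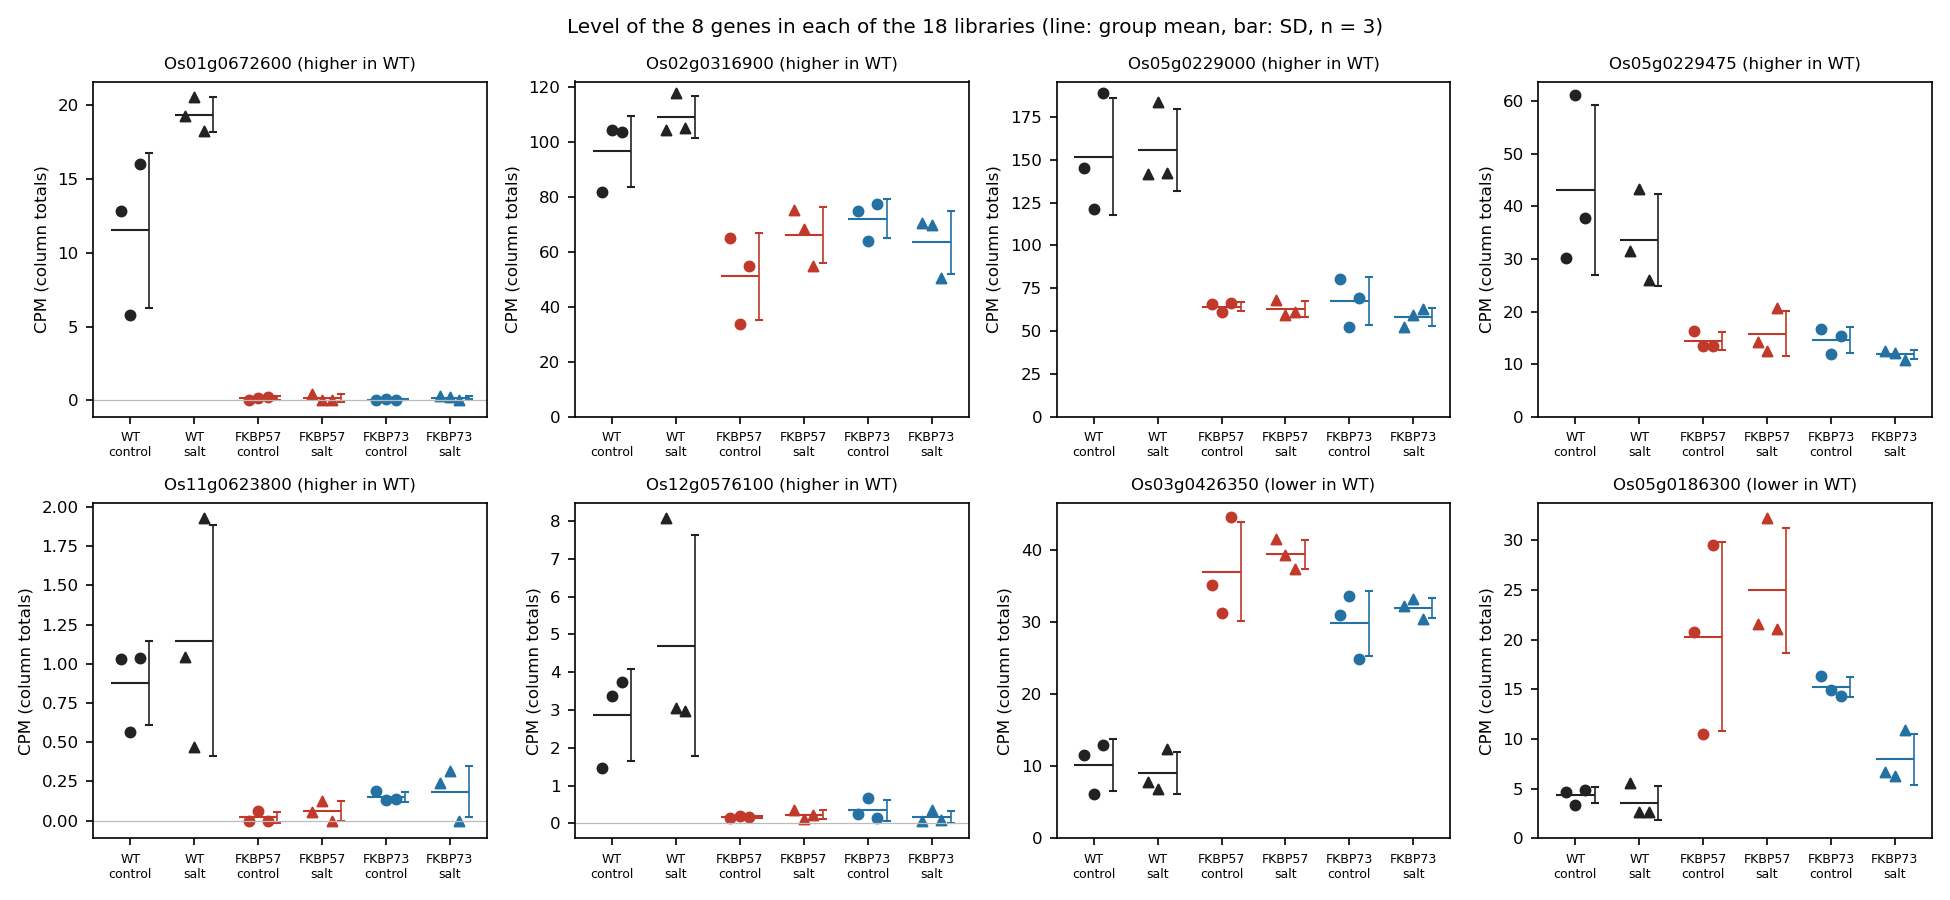
Each panel plots 1 gene in CPM of the library total, with 1 point per library, a line at the group mean and a bar for the SD of the 3 replicates. In the 6 panels of genes higher in wild type all black points lie above the red and blue ones, by 12.4-fold for Os01g0672600 and by 1.06-fold for Os02g0316900, and in the panels of Os03g0426350 and Os05g0186300 they lie below.

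The sign was the same in each knockout under each condition for the 8 genes, as the separation of the groups requires, and the size varied. Os01g0672600 had ratios of wild type to knockout of 46.5 and 70.6 for FKBP57 under control and salt, and of 81.2 and 66.7 for FKBP73. For Os12g0576100 the ratio to the FKBP73 knockout was 6.58 under control and 17.8 under salt, against 11.1 and 14.3 for the FKBP57 knockout. Os11g0623800 kept a ratio of 8.06 and 7.71 to the FKBP57 knockout and of 3.87 and 4.37 to the FKBP73 knockout. The ratio of Os05g0229000 stayed between 2.25 and 2.67 in the 4 comparisons, and that of Os05g0229475 between 2.12 and 2.97. Os02g0316900 was 1.34-fold higher in wild type than in the FKBP73 knockout under control, below the bound of 1.5 that its means over both conditions met. Os03g0426350 was 2.91-fold to 4.34-fold lower in wild type, and Os05g0186300 was 2.18-fold lower than the FKBP73 knockout under salt and 6.79-fold lower than the FKBP57 knockout under salt.

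**Figure D2:**
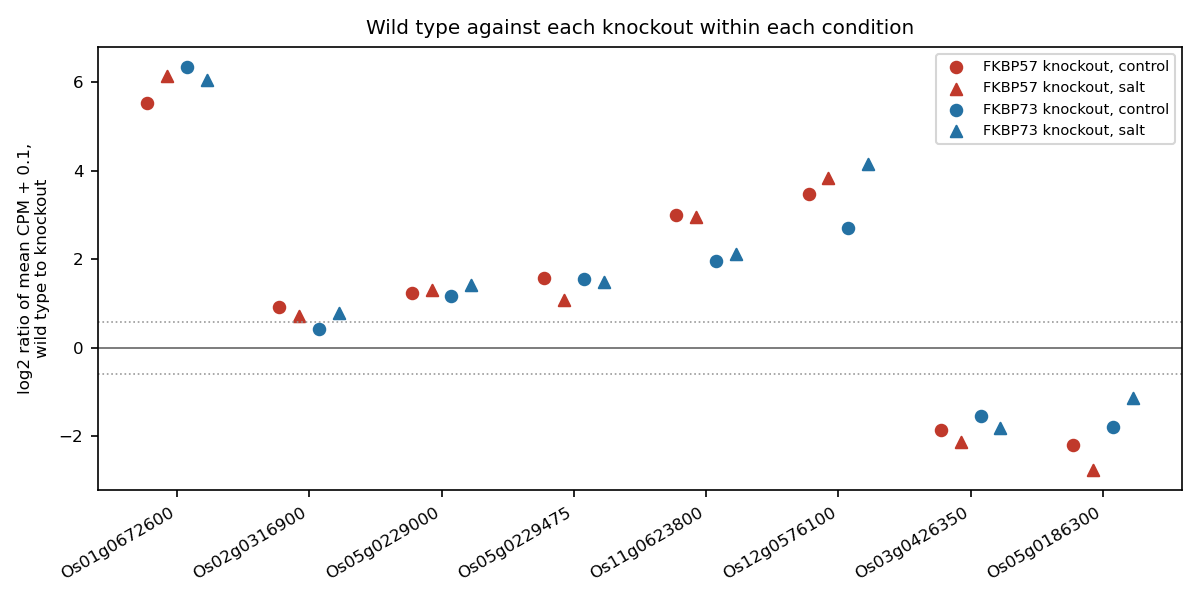
Points give the log2 ratio of mean CPM plus 0.1 of wild type to each knockout within control (circles) or salt (triangles), with dotted lines at a ratio of 1.5 either way. The 6 genes on the left lie above 0 and the 2 on the right below it, and 1 point of Os02g0316900, its ratio of 1.34, lies inside the dotted lines.

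Salt was not part of the rule, so the response of the 8 genes to it was tested. All 8 passed the filter on low counts, and edgeR's quasi-likelihood test across 25957 genes called none of them for salt in wild type, in the FKBP57 knockout, in the FKBP73 knockout or for the mean of the 3 genotypes. In the same fit 24.5%, 6.32%, 14.3% and 42.8% of all genes were called in these comparisons, in that order. By unadjusted p under 0.05 the counts among the 8 were 0, 0, 1 and 0, where 38.8%, 21.4%, 28.9% and 51% of all genes were under it. DESeq2 called 0 of the 8 in each, where it called 32.1%, 11.5%, 20.5% and 47.5% of the 25957 genes. The rule asks wild type and knockouts to stay apart across both conditions, so a salt response that carries libraries across the gap keeps a gene out, and the low count is not independent of the choice. Over the 8 genes the median size of the mean salt response was 0.176 on the log2 scale, against 0.436 over all genes tested.

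The mean salt response was -0.38 (SE 0.24, edgeR adjusted p = 0.226) for Os05g0186300 and 0.95 (SE 0.59, edgeR adjusted p = 0.21) for Os01g0672600, as log2 fold changes. Without the 3 libraries that lay apart, the value of Os01g0672600 was 1.55 (SE 0.52, edgeR adjusted p = 0.0257), and without FKBP57 knockout salt 1 alone it was 0.15 (edgeR adjusted p = 0.893). The 3 were chosen after seeing the data, on the first principal component, which parted the other controls from the other salt libraries. Their removal is therefore not independent of salt. Without FKBP57 knockout control 2 the mean salt response of Os05g0186300 was -0.5 (SE 0.2, edgeR adjusted p = 0.0479). Os11g0623800 had 0.63 (SE 0.62), Os12g0576100 -0.02 (SE 0.34) and Os02g0316900 0.06 (SE 0.15). For Os05g0229000 and Os05g0229475 the values were -0.12 (SE 0.13) and -0.23 (SE 0.16), and for Os03g0426350 -0.06 (SE 0.17). The change was smaller than its standard error for Os12g0576100, Os02g0316900, Os05g0229000 and Os03g0426350. Standard errors were smallest for Os05g0229000, Os02g0316900 and Os05g0229475, and largest for Os11g0623800 and Os01g0672600, which had few or no counts in the knockouts.

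In a single genotype each, the salt and control libraries of Os01g0672600 and of Os05g0186300 did not overlap. The share of all genes with such a separation among 3 against 3 libraries was not computed. The separations are therefore a description and not a result about these genes. Os01g0672600 had 11.5 ± 5.24 CPM (SD, n = 3) in wild-type controls and 19.3 ± 1.17 CPM under salt, and all 3 salt libraries lay above all 3 controls. Its log2 fold change in wild type was 0.76 (SE 0.74, edgeR adjusted p = 0.47). Os05g0186300 had 15.2 ± 1.01 CPM in the FKBP73 knockout controls and 7.95 ± 2.56 CPM under salt, with all salt libraries below the controls. Its change there was -0.96 (SE 0.42, edgeR adjusted p = 0.146), and in the other genotypes it was 0.09 (SE 0.42) for the FKBP57 knockout and -0.25 (SE 0.43) for wild type. Without FKBP57 knockout control 2 the edgeR adjusted p of the FKBP73 value was 0.0484, and in a fit of only the FKBP73 knockout libraries it was 0.0233.

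Whether the salt response of the 8 genes differed between a knockout and wild type was tested directly. edgeR called 0 of the 8 for the FKBP57 knockout and 0 for the FKBP73 knockout, where 0% of all genes were called in either comparison, and 0 of the 8 had an unadjusted p under 0.05. Over all genes 1612 (6.21%) and 777 (2.99%) fell under that unadjusted threshold. DESeq2 called 26 (0.1%) and 4 (0.0154%) genes in all, 0 of the 8 among them. The difference for Os05g0186300 in the FKBP73 knockout was a log2 value of -0.71 (SE 0.6, edgeR adjusted p = 0.993), and that for Os12g0576100 was -1.83 (SE 0.95, edgeR adjusted p = 0.993). Scaling by library totals without the TMM factors would move the median gene by 0.164 in the FKBP57 comparison and by 0.135 for salt in the FKBP57 knockout. The fold changes are given relative to the TMM scale.

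The difference between the 2 knockouts was tested as an average over control and salt. The rule did not compare the knockouts with each other, but it asked both to lie on the same side of wild type. A gene in which either knockout reached wild type was kept out, so the number called is not independent of the choice. edgeR called 0 of the 8 genes, against 0.489% of all genes, with 2 of the 8 at an unadjusted p under 0.05, against 7.12% of all genes. By DESeq2 1 of the 8 was called, Os05g0186300, against 1.12% of all genes. The FKBP57 knockout exceeded the FKBP73 knockout in that gene by 1.16 in log2 (SE 0.3, edgeR adjusted p = 0.187, DESeq2 adjusted p = 0.0179). Its 6 FKBP57 knockout libraries had 22.6 ± 7.66 CPM (SD, n = 6) and its 6 FKBP73 knockout libraries 11.6 ± 4.34 CPM, and the ranges overlapped through FKBP57 knockout control 2 at 10.5 CPM. Without that library the change was 1.33 (SE 0.24, edgeR adjusted p = 0.0176). For Os11g0623800 the FKBP57 minus FKBP73 log2 difference was -2.01 (SE 0.83, edgeR adjusted p = 0.61), from 8 counts against 31, and -3.41 (edgeR adjusted p = 0.196) without FKBP57 knockout control 2.

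For the other 6 genes the difference between the knockouts was between -0.21 and 0.89 on the log2 scale. It was 0.41 (SE 0.21, edgeR adjusted p = 0.743) for Os03g0426350 and 0.89 (SE 0.81) for Os01g0672600, whose knockout values rest on 32 and 22 counts. Os05g0229475 and Os05g0229000 had 0.28 (SE 0.19) and 0.11 (SE 0.16), and Os02g0316900 and Os12g0576100 had -0.11 (SE 0.19) and -0.21 (SE 0.53). A p above the threshold does not show that the knockouts had the same level.

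**Figure D3:**
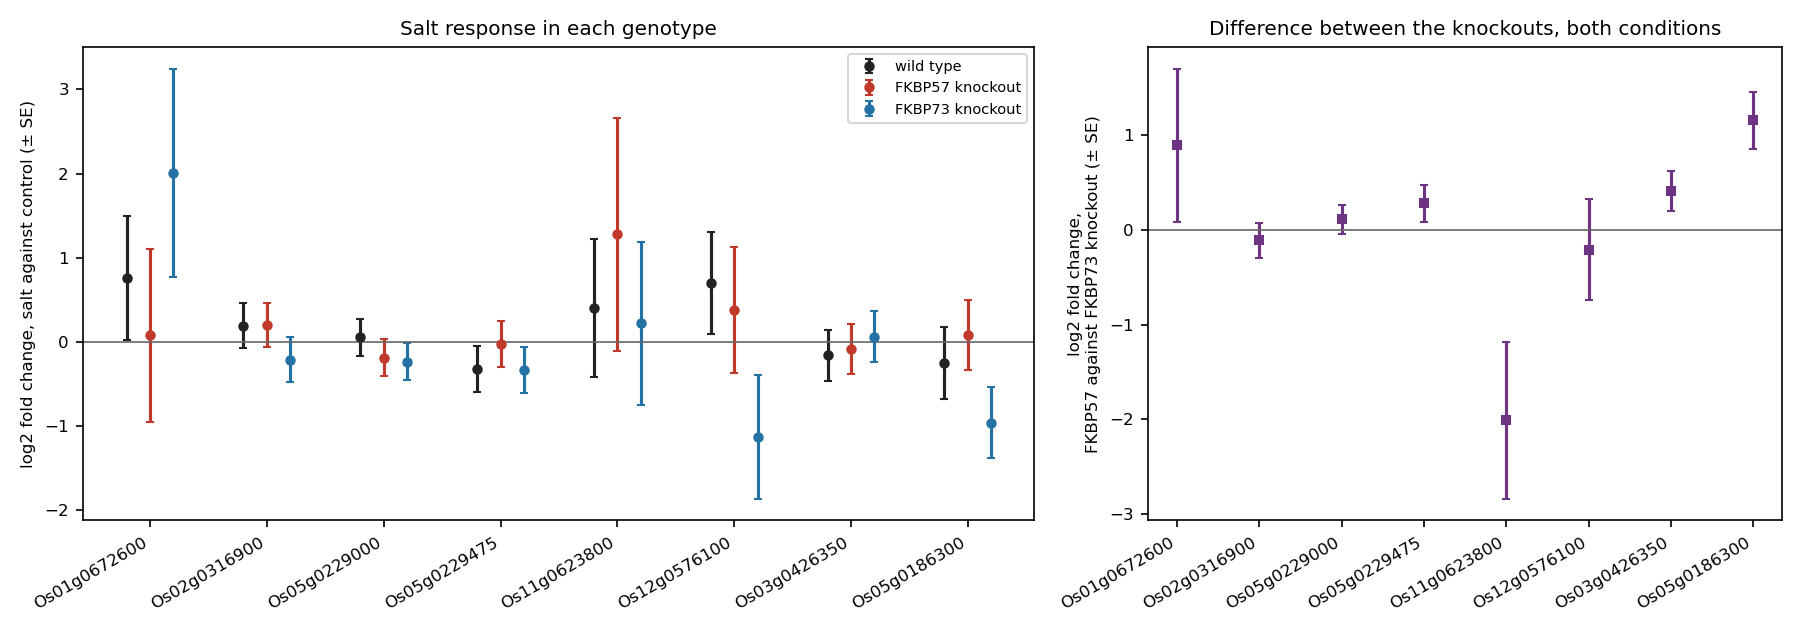
The left panel gives the log2 fold change of salt against control in each genotype and the right panel that of the FKBP57 against the FKBP73 knockout over both conditions, with bars of 1 standard error from edgeR. Most bars on the left cross 0, and on the right Os05g0186300 lies at 1.16 and Os11g0623800 at -2.01.

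RAP-DB identifiers carry the chromosome number and, by convention, the order of genes along it. By identifier, 3 of the 8 genes were on chromosome 5, which holds 7.99% of the genes in the table, and 1 each was on chromosomes 1, 2, 3, 11 and 12. Os05g0186300, on the same chromosome, differed in direction from the adjacent pair. To see whether genes beside them were also shifted, the 10 genes before and the 10 after each member were examined, of which 93 distinct genes had a mean of at least 0.5 CPM and were not among the 8.

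The shares of neighbours whose ratio passed 1.5 lay near those of all genes. Of the 93, 0 had libraries of wild type and FKBP57 knockout that did not overlap, where 0.435% of all genes at that level had none overlapping, and 1 had for the FKBP73 knockout, where the share of all genes was 0.231%. That gene lay 2 places before Os12g0576100. Its log2 ratio of wild type to the FKBP73 knockout was -1.95, opposite in direction to Os12g0576100. To the FKBP57 knockout its log2 ratio was -0.18, and those libraries overlapped. The ratio to the FKBP57 knockout passed 1.5 either way in 4.3% of the neighbours and that to the FKBP73 knockout in 6.45%, against 5.94% and 5.49% of all genes at that level. Around Os01g0672600, whose own ratios were 59.1 and 71.4, 18 neighbours had log2 ratios to the FKBP57 knockout from -0.16 to 0.4, with a median of 0.02. Around Os03g0426350 the median over 14 neighbours was 0.07, and around Os05g0186300 it was 0.0043 over 15. The widest spread to the FKBP57 knockout was around Os02g0316900, where 13 neighbours ran from -0.22 to 1.43 (median 0.09). Their log2 ratios to the FKBP73 knockout ran from -0.62 to 1.16 (median -0.05). The gene 9 places before Os02g0316900 had 0.74 and 1.16, the same direction as that member, with overlapping libraries.

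**Figure D4:**
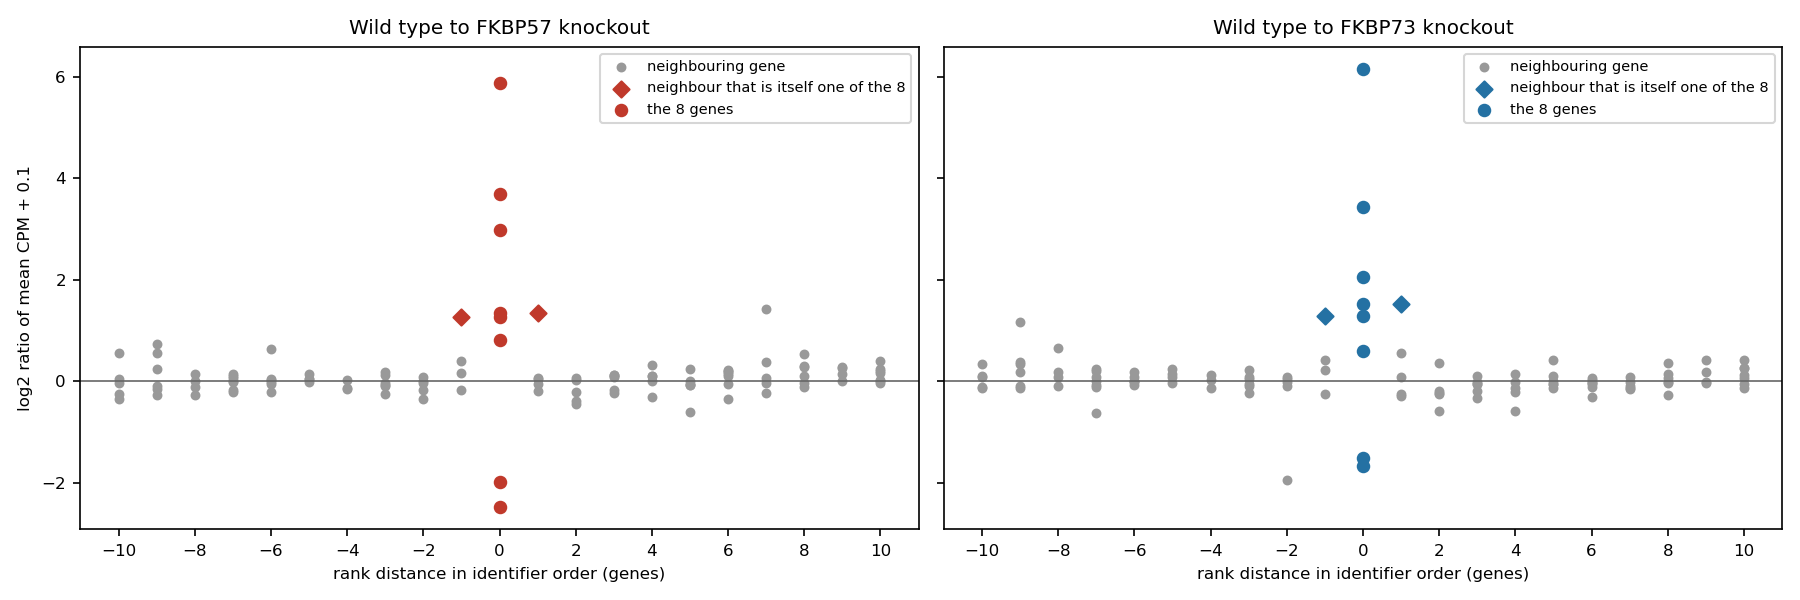
Grey points give the log2 ratio of mean CPM plus 0.1 of wild type to each knockout for genes up to 10 places from one of the 8 genes in identifier order, and coloured points give the 8 genes. Most grey points lie close to 0, with extremes of -1.95 and 1.43, and the diamonds next to the centre are the adjacent pair Os05g0229000 and Os05g0229475.

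The same rule was applied with a knockout as the genotype set apart, to place the number 8. The FKBP57 knockout was apart from both other genotypes in 73 genes, 59 higher and 14 lower, and the FKBP73 knockout in 9 genes, 4 higher and 5 lower. Libraries did not overlap in 0.222% of all genes for the FKBP57 knockout and in 0.037% for the FKBP73 knockout. The smaller of the ratios had a median of 3.04 in the wild-type set, 7.15 in the FKBP57 set and 3.41 in the FKBP73 set. It was at least 10 in 2 of 8, 30 of 73 and 0 of 9 genes. No gene of the wild-type set had 0 counts in every library of its low side, against 12 in the FKBP57 set and 1 in the FKBP73 set. These sets share libraries and were not tested against each other.

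The salt response can be set beside that of sets bound by the same rule. For the mean of the 3 genotypes edgeR called 0 of the 8 wild-type set genes, 14 of the 73 FKBP57 set genes (3 higher, 11 lower) and 0 of the 9 FKBP73 set genes. In the same fit 42.8% of all genes tested were called, against 19.2% of the FKBP57 set. The median size of the response was 0.176, 0.384 and 0.171 on the log2 scale in these sets, against 0.436 over all genes tested. In each set the rule kept out genes whose salt response carries libraries across the gap, so these values are not independent of the choice.

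Some genes lay just outside the rule. The ratio and the level, without the separation, were met by 209 genes higher and 179 genes lower in wild type. The nearest on the higher side was Os04g0209300, whose lowest wild-type library had 18.6 CPM and highest knockout library 21.6 CPM. On the lower side it was Os01g0647200, with a highest wild-type value of 0.1 CPM and a lowest knockout value of 0.0993 CPM. This gene met the rule on TMM-scaled totals. Its ratio of knockout to wild type was 13.05 for FKBP57 and 1.825 for FKBP73, and it was also in the set higher in the FKBP57 knockout. Just inside were Os02g0316900, at 81.9 against 77.5 CPM, and Os05g0186300, at 6.28 against 5.56 CPM. Without wild-type control 1 the rule gave 13 genes and without wild-type control 2 it gave 14. The 8 were among them in both cases, where only the ratio and the level could have removed them. With the whole rule, its ratio and level included, applied within each condition, 7 genes were higher and 3 lower in wild type in both. Of the 8, 7 were among these 10 and Os02g0316900 was not. Its libraries did not overlap in either condition, but its control ratio of 1.34 to the FKBP73 knockout was under the bound. Separation within 1 condition, 3 against 6 libraries, was far more common than over all 18. Of the 37863 genes, 192 had wild type above and 101 below all knockout libraries in control. Under salt these were 704 and 960. The whole rule was met by 54 and 30 genes in control and by 183 and 459 under salt.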

How the data were processed

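The authors deposited raw read counts for 37863 RAP-DB identifiers in 1 table, 5242 of them without a count in any library. Per the submitters' processing notes, fastp 0.22.0 and HTSeq 0.9.1 were used with the build IRGSP-1.0. No source used here gives the aligner, annotation release or strand setting. Of counts from 1 to 20, 63.6% were even over all genes and 87.1% of 31 such values among the members. No source used here says whether mates of a pair were counted separately, which would change what the lowest counts and the limit of 3 counts mean. The reference table (assembly ASM3414082v1) held 1 of the identifiers and none of the 8 members. Sequences and positions were not used.

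The members and lists were chosen with earlier results of these data known. CPM are counts per 1000000 of the library total. Tests used edgeR 4.0.16 in R 4.3.3: filterByExpr (minimum count 10, minimum total 15) kept 25957 genes, TMM factors were 0.779 to 1.11, and all 18 libraries entered 1 quasi-likelihood fit with a mean for each of the 6 groups. The threshold was a Benjamini-Hochberg adjusted p of 0.05 over all genes tested. Standard errors came from the F statistics. Alternatives were DESeq2 1.42.0, RLE, no filter, a replicate block, only the groups compared, each library left out, and other settings of the rule. The fit without 3 libraries was chosen after seeing the data.

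Per ranking or comparison at most 2 genes a direction were to be named: by ratio, by CPM, by the largest called change, at the edge of the rule and in runs of adjacent members. edgeR called no member in the fit of all libraries, so all 8 are given, Os11g0623800 after its values were seen. The labels do not say whether replicates were separate plants, so p-values measure the spread between these libraries.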

Additional observations from a re-analysis of the deposited data

How the results depend on the processing

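The log2 ratios of wild type to each knockout kept their sign in all 336 recomputed values, which the separation of the groups fixes in most settings. Of these, 6 moved by more than the SD between replicates, all with 0.5 CPM added: to 4.59 and 4.69 for Os01g0672600, 2.61 and 2.49 for Os12g0576100, and 1.48 and 1.18 for Os11g0623800 (FKBP57 and FKBP73). The rule gave 9 genes on TMM-scaled totals (5 higher, 4 lower in wild type), 7 at a ratio bound of 2, 8 with no bound, 7 at a floor of 2 CPM, 8 with 0.5 added to the means and 10 without the 3 libraries. With single libraries left out it gave 7 to 14 genes, 5 to 11 higher and 2 to 5 lower. Of the 8, Os02g0316900 was lost on TMM-scaled totals, at the bound of 2 and without FKBP73 knockout control 2, wild-type salt 2 or FKBP73 knockout salt 3, and Os11g0623800 at the floor of 2 CPM.

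Counts of members called stayed 0 for salt in wild type, salt in the FKBP57 knockout and both differences of the salt response, in every alternative run. For salt in the FKBP73 knockout, 1 member (Os05g0186300) was called in a fit of only those groups, and 0 to 1 with single libraries left out. For mean salt it was 0 to 1 with single libraries left out (Os05g0186300 at -0.5 without FKBP57 knockout control 2) and 1 without the 3 libraries (Os01g0672600 at 1.55, edgeR adjusted p = 0.0257). For the FKBP57 against the FKBP73 knockout it was 1 by DESeq2 and 0 to 1 with single libraries left out. The cause was not tested. Over their alternatives, the adjusted p of Os05g0186300 ran from 0.0176 to 0.51 between the knockouts and from 0.0233 to 0.373 for salt in the FKBP73 knockout.

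Uncalled values changed sign. With single libraries left out, mean salt ran from -0.045 to 0.13 for Os02g0316900, from -0.36 to 0.28 for Os12g0576100 and from -0.16 to 0.039 for Os03g0426350, and without the 3 libraries it was 0.052 for Os05g0229000, 0.15 for Os12g0576100 and 0.18 for Os03g0426350. The knockout difference ran from -0.31 to 1.19 for Os01g0672600, from -0.22 to 0.032 for Os02g0316900 and from -0.41 to 0.3 for Os12g0576100.

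The replicate numbers gave no pairing that held across all groups. Same-number correlations of deviations ran from -0.662 to 0.73, and 14 of 45 were over 0.1. Only 3 of 18 libraries were closest to their own number. The 3 libraries that lay apart on the first principal component all carry replicate number 3. Whether some groups shared a batch was not tested, and these counts cannot exclude it. With the replicate block 0 members were called in each comparison, mean salt of Os12g0576100 was 0.0024, and the counts over all genes were 10137 for mean salt, against 11104, and 91 for the knockouts, against 127.

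Over all genes, the knockouts differed in 83 to 182 genes with single libraries left out, 83 in a fit of their groups and 290 by DESeq2. Salt calls were 141 in the FKBP57 knockout and 7150 in the FKBP73 knockout in fits of only those groups, against 1641 and 3722. Mean salt had no fit of only its groups, which are all 6. Values under about 0.1 CPM are at the limit of 3 counts.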
